A study of Mus musculus with 24 samples.

Results

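Loss of Prdm6 from neural crest-derived cells was compared between 2 arteries of mouse embryos, the ductus arteriosus (DA) and the ascending aorta, at E18.5, just before birth. The quantity described throughout is the interaction of genotype and vessel: the change from control to Prdm6-deficient samples in the DA minus the same change in the aorta, on the log2 scale. It was taken over 23 of the 24 samples of the series, and 16463 of the 54752 genes in the table had enough reads to be tested. A gene is called lower when this difference is negative (a larger fall, or a smaller rise, in the DA than in the aorta) and higher when it is positive.

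The 5 Prdm6-deficient DA and 5 Prdm6-deficient aorta samples were Wnt1Cre;PRDM6f/f, in which Cre is driven in the neural crest, so cells of other origin in the same vessel keep the gene. Of the 7 control DA samples, 5 came from PRDM6wt/f embryos without Cre, 1 from a PRDM6wt/wt embryo without Cre and 1 from a Wnt1Cre;PRDM6wt/wt embryo. The 6 control aortas were 5 PRDM6wt/f and 1 Wnt1Cre;PRDM6wt/wt, so most controls themselves carried 1 floxed allele. Prdm6-deficient DA replicates 1 and 2 were each pooled from 2 embryos, and replicate 4 of that group is not used here. In 6 control embryos and 3 Prdm6-deficient units (an embryo, or a pool with the aortas of its embryos) both vessels were measured, which gave 19 of the 23 libraries, and the main test did not pair them.

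The DA is the fetal shunt between the pulmonary artery and the aorta. Its smooth muscle matures early, is held open before birth by prostaglandin E2 and contracts when oxygen rises at birth, whereas the ascending aorta stays an elastic conduit. Prdm6 is a PR/SET domain protein enriched in smooth muscle, and the neural crest supplies smooth muscle to both vessels.

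Libraries held 15163931 to 22610501 counts, so 3 counts correspond to 0.135 to 0.201 CPM (counts scaled to library size). Pairwise correlations of log2 CPM were 0.898 to 0.949 within the control DA and 0.948 to 0.963 within the Prdm6-deficient aorta, so the DA libraries were the more variable. Smooth muscle genes were abundant in every library: Acta2 (smooth muscle α-actin) lay between 3630 and 8650 CPM. Erythroid markers summed to 137000 CPM in control aorta replicate 4 and 138000 CPM in Prdm6-deficient DA replicate 1, against 66600 CPM or less in the other libraries. Without these 2 libraries, a check chosen after seeing the data, 407 genes were called in the interaction.

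Prdm6 itself did not pass the test of a difference between the vessels. Its level was 85, 104 and 128 CPM (lowest, median, highest) in control DA and 78.1, 70.8, 77.7, 78.5 and 58.6 CPM in the 5 Prdm6-deficient DA samples. In control aorta it was 95.6, 109 and 136 CPM, and in the Prdm6-deficient aorta 69.6, 70.0, 68.5, 81.2 and 61.9 CPM. The groups did not overlap in either vessel. Prdm6 fell by 0.57 ± 0.11 (log2, SE) in the DA and by 0.69 ± 0.11 in the aorta, and the interaction was 0.12 ± 0.15 (adjusted p = 0.81). Gene-level counts do not separate the floxed part of the transcript from the rest.

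The interaction called 425 genes at an adjusted p below 0.01 and a log2 difference beyond 0.5, which is 2.58% of the genes tested. Of these, 274 were lower (1.66% of genes tested) and 151 higher (0.917%). In the DA alone 465 genes fell (2.82%) and 429 rose (2.61%). In the aorta 136 fell (0.826%) and 268 rose (1.63%). Passing in one vessel only was not the same as differing between them: of 720 genes called in the DA and not in the aorta, 488 did not pass the interaction, and of 230 called in the aorta only, 138 did not. With the embryo as a fixed block, over the 19 libraries of embryos with both vessels, 238 genes were called, of which 222 were among the 425.

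**Figure D1:**
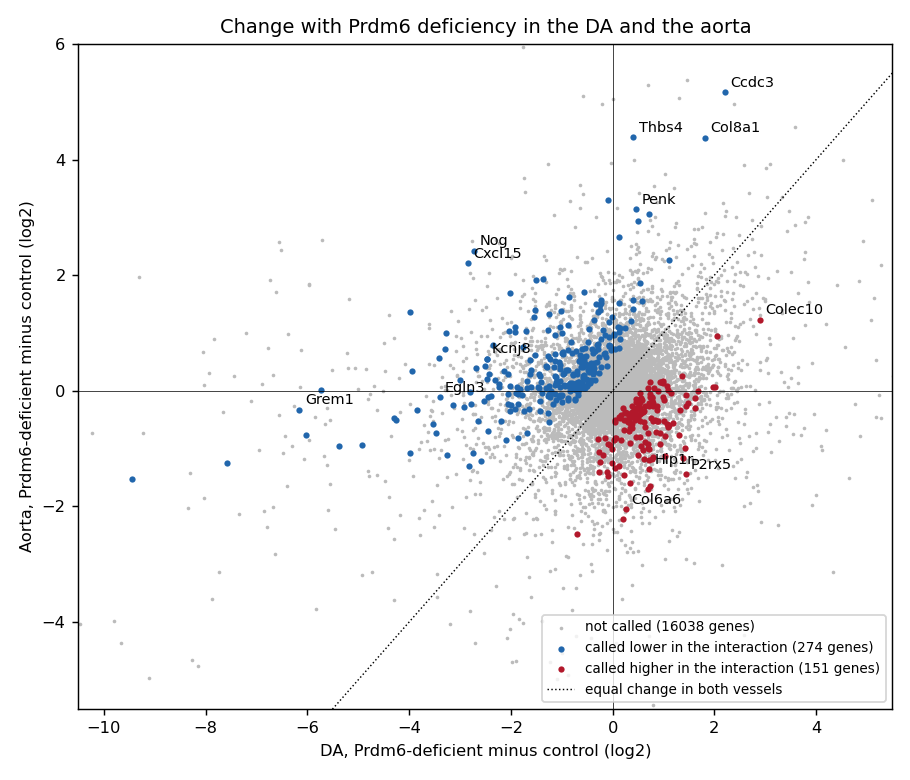
Each point is 1 of the genes tested, placed by its log2 change with Prdm6 deficiency in the DA (x axis) and in the aorta (y axis). Blue points (274 genes) were called lower and red points (151 genes) higher in the interaction. The horizontal distance from the dotted line of equal change is the interaction itself. Beyond the axes lie 38 genes, none of them called.

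The called genes fell into recognisable patterns of change. Among the 274 lower genes, 166 fell in the DA with no call in the aorta, 52 rose in the aorta with no call in the DA, and 14 did both. A further 31 passed in neither vessel alone, 7 fell in both vessels and 4 rose in both. Among the 151 higher genes, 66 rose in the DA only, 40 fell in the aorta only, 40 passed in neither vessel, 3 rose in the DA and fell in the aorta, and 2 rose in both. The median change of the lower genes was -0.92 in the DA and 0.32 in the aorta, beside 0.01 and 0 over all genes tested. For the higher genes it was 0.56 in the DA and -0.47 in the aorta.

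In most of these genes the 2 control vessels stood apart in 1 direction, read from signs and medians without a test. The gap between the vessels (DA minus aorta, log2) was positive in control samples for 272 of the 274 lower genes, with a median of 1.15, and its median in Prdm6-deficient samples was -0.16. For 149 of the 151 higher genes the control gap was negative, with a median of -0.82, and the median in Prdm6-deficient samples was 0.24. Over all 16463 genes tested the control gap was positive for 8107 and negative for 8336. The gap was smaller in size in Prdm6-deficient samples for 250 lower and 131 higher genes, beside 8978 of all genes tested. Because the interaction is the deficient gap minus the control gap, these counts use the same libraries as the calls and are a description. The 4 exceptions, named after their values were seen, were Cxcl12 and Fez1 among the lower genes and Cck and Lynx1 among the higher. Cck, the peptide cholecystokinin, had a control gap of 0.57 and a deficient gap of 2.99, so in these samples the vessels moved apart.

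**Figure D2:**
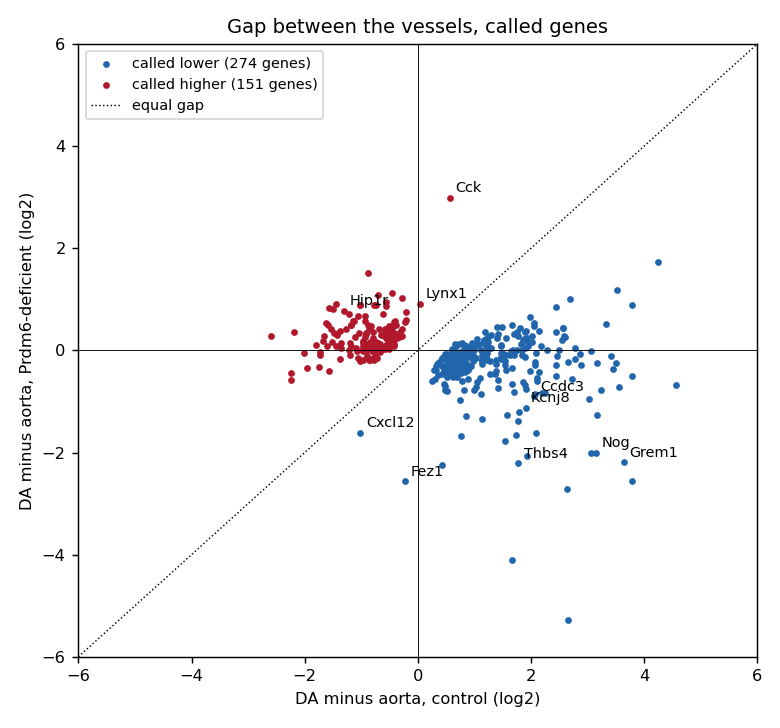
The gap between the vessels (DA minus aorta, log2) is drawn for the 425 called genes in control samples (x axis) and Prdm6-deficient samples (y axis), with blue for genes called lower and red for genes called higher. Blue points lie to the right with a median control gap of 1.15 and red points to the left with a median of -0.82, and both clouds centre near 0 on the y axis.

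The comparison within embryos used the DA and aorta of 1 embryo. The 6 control differences did not overlap the 3 Prdm6-deficient differences for 245 of the 274 lower genes (89.4%) and 141 of the 151 higher genes (93.4%), beside 7.47% of all genes tested. These are the libraries that chose the genes, so the shares are a description. Kcnj8, which encodes the pore of a vascular ATP-sensitive potassium channel, was 0.98 to 2.55 log2 units higher in the DA than in the aorta of control embryos and -1.06 to -0.88 in the Prdm6-deficient units. Hip1r, an adaptor of clathrin-mediated endocytosis, ran the other way, at -1.58 to -0.87 in control embryos and 0.66 to 1.25 in the Prdm6-deficient units.

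**Figure D3:**
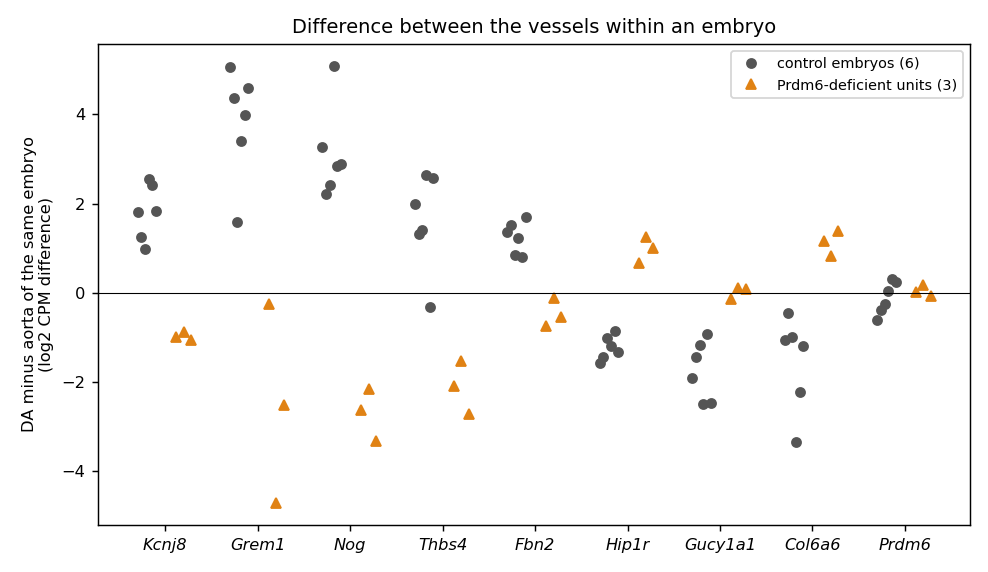
The log2 CPM difference between the DA and the aorta of the same embryo is shown for 9 genes in 6 control embryos (circles) and 3 Prdm6-deficient units (triangles). The 2 sets are separate for Kcnj8, Grem1, Nog, Thbs4, Fbn2, Hip1r, Gucy1a1 and Col6a6, and overlap for Prdm6.

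The most frequent pattern was a fall in the DA of genes that the control aorta expressed at a lower level. Kcnj8 (chr6:142564837-142571614, minus strand, GRCm38) had the smallest p of the interaction. It stood at 219, 294 and 486 CPM (lowest, median, highest) in control DA and at 57.5, 66.7, 71.5, 44.8 and 54.2 CPM in Prdm6-deficient DA, so every deficient library was below every control. In the aorta it was 51.8, 87.8 and 127 CPM in controls and 127, 140, 132, 131 and 113 CPM in Prdm6-deficient samples. The change was -2.48 ± 0.20 in the DA and 0.56 ± 0.19 in the aorta (adjusted p = 0.09), and the interaction was -3.03 ± 0.27 (adjusted p = 2.2e-07).

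Grem1 (Gremlin 1, a secreted BMP antagonist) nearly disappeared from the DA. Control DA held 18.8, 23.7 and 45.6 CPM, while the Prdm6-deficient DA libraries held 0, 1.36, 0, 0.518 and 0.196 CPM. The aorta was low throughout, at 0.606 to 6.84 CPM in controls and 1.61 to 2.59 CPM in Prdm6-deficient samples. Its interaction was -5.83 ± 0.85 (adjusted p = 6.3e-05), a fitted value that rests on counts near 0 in the Prdm6-deficient DA. Egln3, a HIF prolyl hydroxylase, spanned 238 to 632 CPM in control DA and 33.1 to 46.0 CPM in the Prdm6-deficient DA, while the aorta ranges were 37.6 to 107 and 42.5 to 84.7 CPM. Its interaction was -3.30 ± 0.34. Nell1, Akap5, Tbx15 and Cux2 also fell in the DA with no call in the aorta, with interactions between -4.42 and -3.98.

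Ptger4, the EP4 receptor for prostaglandin E2, was the 1 called gene of 18 tested in the prostaglandin and thromboxane list. It measured 134, 164 and 256 CPM in control DA and 19.6, 26.1, 13.2, 31.1 and 21.1 CPM in Prdm6-deficient DA, with no overlap. In the aorta the ranges were 22.0 to 55.9 CPM in controls and 19.1 to 31.0 CPM in Prdm6-deficient samples. The interaction was -2.88 ± 0.32 (adjusted p = 2.4e-06). Tfap2b (AP-2β), a transcription factor of the DA, fell by 4.80 on the log2 scale in the DA, but its interaction of -3.41 ± 1.11 did not pass (adjusted p = 0.076).

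The contractile genes made up the list with the most calls. Of 30 tested, 14 were lower in the interaction (46.7%, beside 1.66% of all genes) and 1 was higher, Itga8. These background shares of 1.66% lower and 0.917% higher hold for every list count of the main test that follows. The list's median interaction was -0.63, with a median change of -0.61 in the DA and -0.06 in the aorta, beside a median interaction of 0.01 over all genes. With the embryo as a block 7 of the 30 were lower, and over all 17226 genes tested in that fit 145 were lower and 93 higher. These totals are the background for later list counts with the embryo as a block. The animals carry numbers of 2 separate runs, and within the second run alone 8 were lower, beside 126 of all 17701 genes tested there.

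Myh11 encodes smooth muscle myosin heavy chain. Control DA held 1420, 1900 and 2870 CPM, and Prdm6-deficient DA 576, 384, 677, 594 and 461 CPM. The aorta held 325 to 773 CPM in controls and 433 to 588 CPM in Prdm6-deficient samples, so the Prdm6-deficient DA lay within or next to the range of the aorta. Its interaction was -1.85 ± 0.28 (adjusted p = 7.8e-05). Actg2 (smooth muscle γ-actin) spanned 964 to 1960 CPM in control DA and 233 to 283 CPM in the Prdm6-deficient DA, with an interaction of -2.30 ± 0.26. Des (desmin), Cnn1 (calponin 1) and Mylk (myosin light chain kinase) had interactions of -2.90 ± 0.41, -1.33 ± 0.18 and -1.64 ± 0.21.

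Mylk was unlike the others in that it rose in the aorta, by 0.65, while it fell by 0.99 on the log2 scale in the DA. Tagln (SM22α) was called at -0.76 ± 0.16, but not with the embryo as a block (adjusted p = 0.0408). Acta2 gave -0.38 ± 0.16 (adjusted p = 0.23) and Srf, Myocd and Ilk did not pass either, at -0.46, -0.40 and -0.21. Actin paralogs share sequence, so reads may have been divided between Acta2 and Actg2 by the estimation of counts. None of the 29 tested genes of the calcium entry, stores and pumps list was called by edgeR, with 8 genes at an unadjusted p below 0.05, and DESeq2 called 1 lower. In bulk tissue, fewer cells of a type and less RNA per cell cannot be told apart.

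A second set was defined by the aorta. Thbs4 (thrombospondin 4, a matrix glycoprotein) was at 0.911, 1.71 and 2.70 CPM in control aorta and 44.5, 41.3, 29.2, 26.9 and 36.0 CPM in Prdm6-deficient aorta. In the DA it was 0.891, 6.23 and 12 CPM in controls and 8.35, 9.88, 10, 4.77 and 5.35 CPM in Prdm6-deficient samples, so the groups overlapped there and were far apart in the aorta. The rise in the aorta was 4.39 ± 0.44, the change in the DA 0.40 ± 0.38, and the interaction -3.98 ± 0.57 (adjusted p = 5.6e-05).

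Penk, which encodes proenkephalin, rose in the aorta by 3.14 ± 0.27, from 31.8 to 47.7 CPM in controls to 360, 389, 371, 267 and 251 CPM. Its change in the DA was 0.46 ± 0.24, and the interaction -2.68 ± 0.36. Mme (neprilysin, a peptidase that degrades enkephalins) had an interaction of -3.38 ± 0.49 and Ptx3, a soluble pattern recognition protein, one of -2.44 ± 0.34, both with a rise in the aorta only. Fbn2 (fibrillin 2, a microfibril component) went from 99.2, 115 and 150 CPM in control aorta to 350, 393, 345, 327 and 319 CPM, a level in the range of the control DA (199 to 338 CPM) or above it. Its interaction was -1.75 ± 0.17 (adjusted p = 7.4e-07).

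Rgs5, a regulator of G protein signalling of mural cells, was the most abundant gene of this kind named here. It rose from 1240, 1400 and 2620 CPM in control aorta to 5500, 5630, 5550, 4920 and 4850 CPM. The DA held 5390 to 10600 CPM in controls and 3470 to 7260 CPM in Prdm6-deficient samples, a change of -0.56 ± 0.19 that did not pass (adjusted p = 0.05), and the interaction was -2.27 ± 0.28. The highest control aorta for Rgs5, Grem1, Ptger4 and Kcnj8 was in each case replicate 4. Without that library 436 genes were called, and these 4 genes stayed called.

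**Figure D4:**
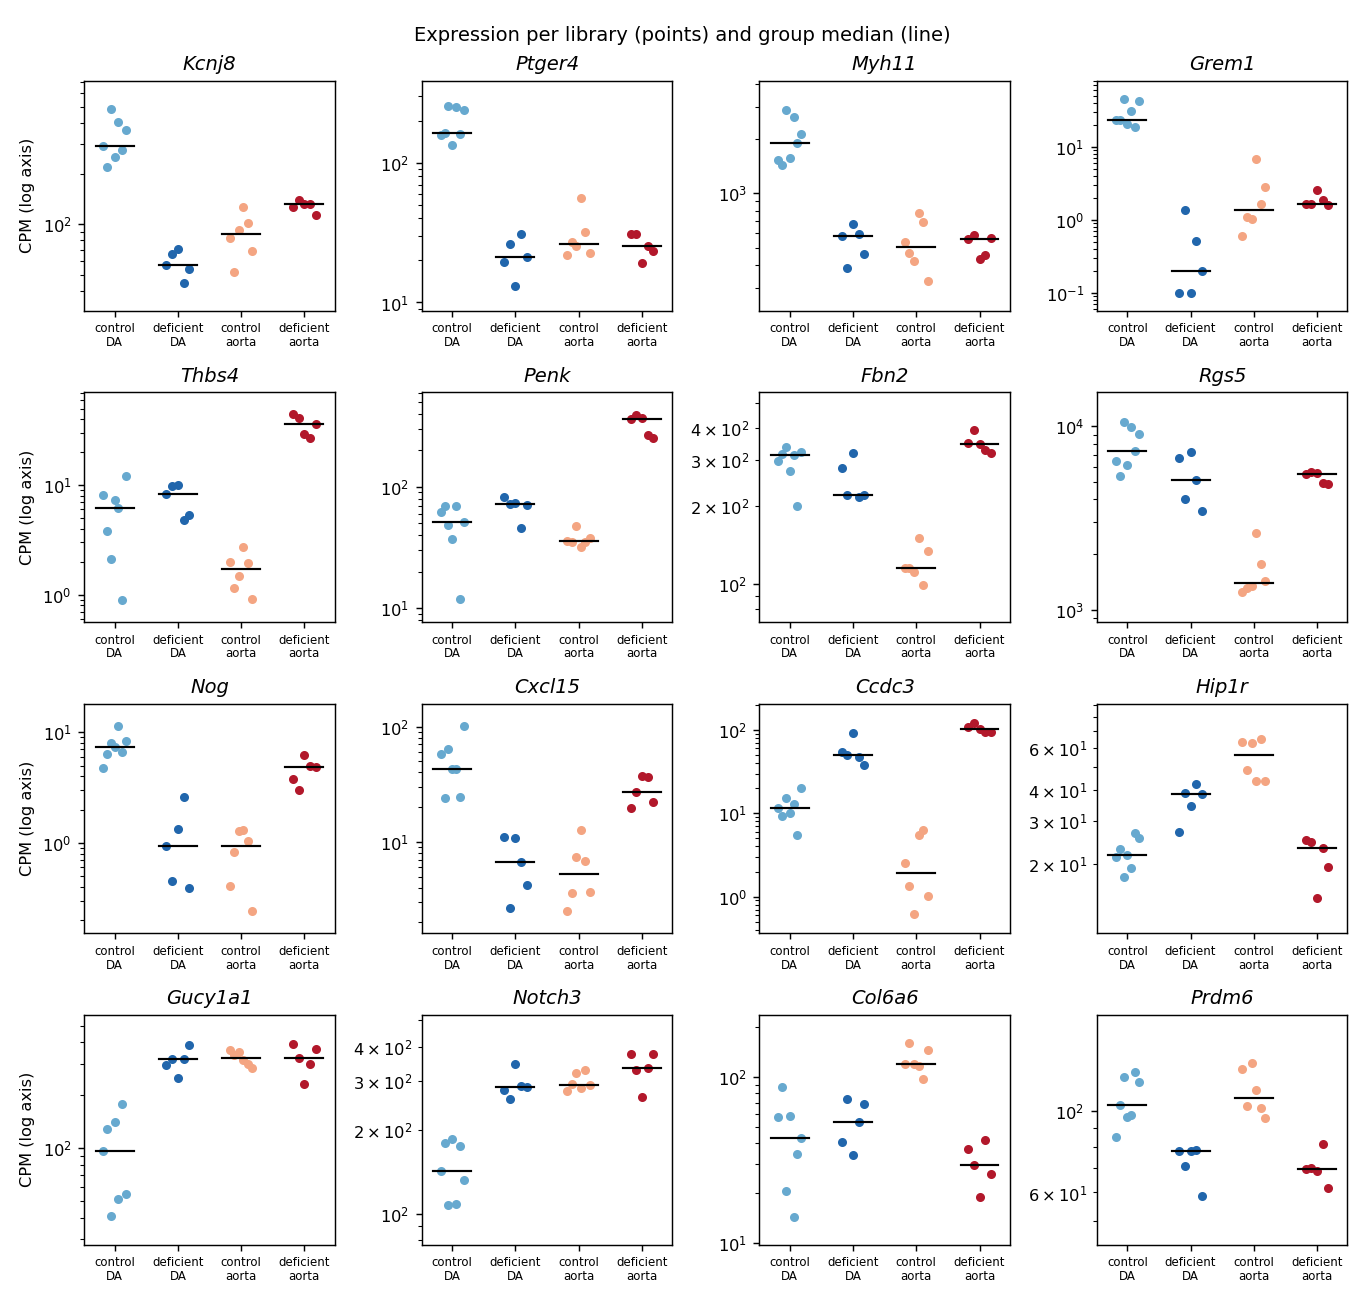
CPM on a log axis in each library (points) with the group median (line) for 16 genes, in control and Prdm6-deficient DA (blue) and control and Prdm6-deficient aorta (orange and red). Values below 0.1 CPM are drawn at 0.1. The top row falls in the DA, the second row rises in the aorta, and Nog and Cxcl15 do both.

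The 14 genes that fell in the DA and rose in the aorta had a median gap between the vessels of 1.49 in controls and -0.5 in Prdm6-deficient samples. Nog (noggin, a BMP antagonist) was at 4.74, 7.42 and 11.6 CPM in control DA and 0.935, 0.454, 1.33, 2.59 and 0.393 CPM in Prdm6-deficient DA. In the aorta it was 0.24, 0.933 and 1.3 CPM in controls and 3.76, 3.02, 6.28, 4.98 and 4.83 CPM in Prdm6-deficient samples, so neither vessel's groups overlapped and the order of the vessels was turned. It changed by -2.73 ± 0.47 in the DA and 2.42 ± 0.45 in the aorta (interaction -5.15 ± 0.65, adjusted p = 1.2e-05). These are low levels. The lowest values of the control aorta (0.24 CPM) and Prdm6-deficient DA (0.393 CPM) lie close to the floor of 3 counts, 0.135 to 0.201 CPM. The fitted interaction rests in part on those small counts.

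Cxcl15, a chemokine, behaved likewise at higher levels, with 24.2 to 101 CPM in control DA against 2.67 to 11.1 CPM in Prdm6-deficient DA, and 2.52 to 12.8 CPM in control aorta against 19.5 to 37.2 CPM in Prdm6-deficient aorta. The interaction was -5.06 ± 0.57. The other 12 were Ckb, Cyp1b1, Angptl1, Farp1, Npr3, Gdf6, Pde4b, Ror2, Mylk, Ltbp1, Tshz1 and Palld. Npr3, the natriuretic peptide clearance receptor, fell by 1.26 in the DA and rose by 1.06 in the aorta. Pde4b, a cAMP phosphodiesterase, had an interaction of -1.99 ± 0.29.

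The reverse, a rise in the DA with a fall in the aorta, was seen in 3 genes, Hip1r, Cdh13 and Fam129a. Hip1r was at 17.6, 21.7 and 26.6 CPM in control DA and 27.1, 39.1, 34.6, 42.4 and 38.7 CPM in Prdm6-deficient DA. Control aorta held 43.9, 55.7 and 64.8 CPM and Prdm6-deficient aorta 24.9, 24.6, 14.5, 23.1 and 19.3 CPM. The groups did not overlap in either vessel, and the interaction was 2.08 ± 0.21 (adjusted p = 8.7e-07).

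In a few genes both vessels changed the same way by different amounts. Ccdc3, a secreted coiled-coil protein, rose in both, from 5.51 to 20.4 CPM to 38.1 to 91.7 CPM in the DA and from 0.616 to 6.29 CPM to 94.6 to 122 CPM in the aorta. The rises were 2.21 ± 0.34 and 5.17 ± 0.41. Col8a1, Higd1a and Thbd also rose more in the aorta. Colec10, a collectin, rose by 2.90 in the DA and 1.23 in the aorta, and Fgl2 by 2.05 and 0.94. The 7 genes that fell in both and more in the DA were Flrt3, Tgfbi, Kcnk1, Slc12a2, Sh3bgr, Lpar1 and Kitl. The embryo block was read for 5 of the 7 (Flrt3, Tgfbi, Kcnk1, Lpar1 and Kitl) and ended each of those calls.

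Genes called higher were led by P2rx5, a purinergic receptor channel. Its DA ranges were 0.798 to 4.30 CPM (control) and 2.59 to 8.29 CPM (Prdm6-deficient), and its aorta ranges 8.39 to 18.3 CPM (control) and 2.88 to 8.64 CPM (Prdm6-deficient). Its interaction was 2.88 ± 0.54. Gucy1a1 and Gucy1b1, the subunits of the nitric oxide receptor guanylyl cyclase, rose in the DA. Gucy1a1 was at 40.8, 95.7 and 177 CPM in control DA and 297, 324, 250, 321 and 389 CPM in Prdm6-deficient DA, while the aorta held 287 to 362 CPM in controls and 233 to 394 CPM in Prdm6-deficient samples. The interactions were 1.69 ± 0.36 and 1.14 ± 0.21.

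In the list of endothelin, nitric oxide and cyclic nucleotide genes 4 of 26 were lower (Npr3, Pde4b, Edn1 and Ece1) and 4 higher (Gucy1a1, Gucy1b1, Pde5a and Adcy5), or 15.4% each beside 1.66% and 0.917% of all genes. With the embryo as a block 3 were lower and 3 higher, and Ece1 was not called (adjusted p = 0.0104). Edn1, the precursor of endothelin 1, fell by 1.14 in the DA and had an interaction of -1.78 ± 0.25. In the Notch list 3 of 23 were higher (13%, beside 0.917% of all genes) and none lower, where the background of 1.66% gives less than 1 gene. Notch3 and its ligand Jag1 rose in the DA by 0.99 and 0.93, with interactions of 0.82 ± 0.18 and 0.78 ± 0.17. Nrarp was the third, and none of the 3 was called with the embryo as a block (adjusted p = 0.0399 for Notch3, 0.0396 for Jag1 and 0.0145 for Nrarp). Leaving out Prdm6-deficient aorta replicate 3 ended all 3 calls. Prdm6-deficient DA replicate 5 ended those of Notch3 and Nrarp, and Prdm6-deficient aorta replicate 4 that of Jag1. Nrarp stayed called in 11 of the 23 fits without 1 library.

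**Figure D5:**
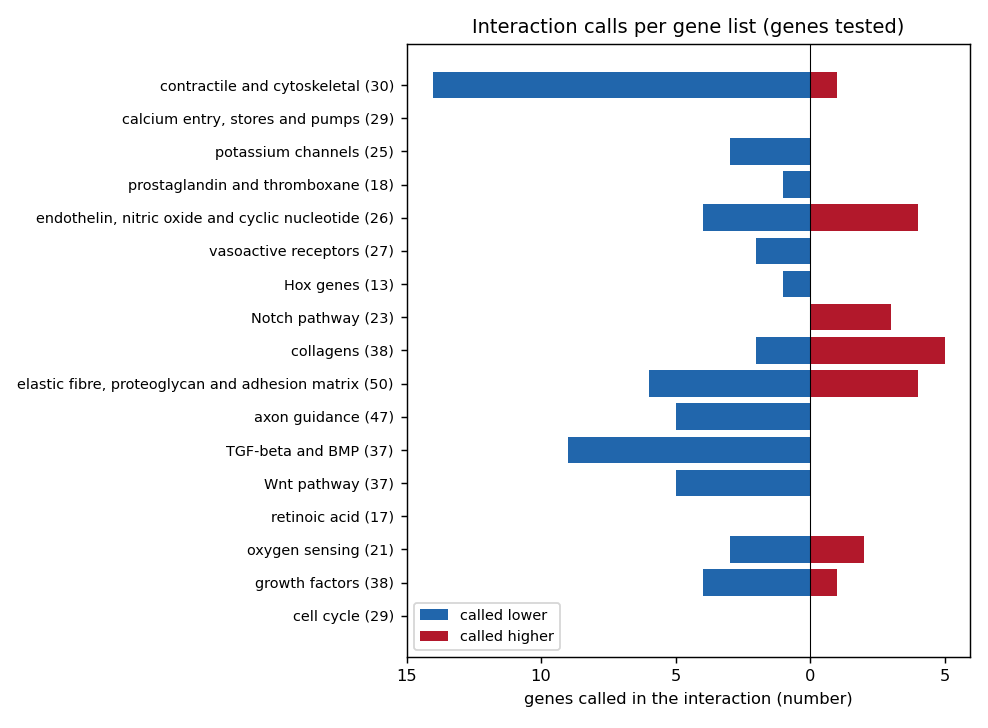
Bars give the number of genes called lower (blue, to the left) and higher (red, to the right) in the interaction for each of 17 gene lists, with the number tested in brackets. The contractile list has 14 lower and 1 higher of 30, the TGF-beta and BMP list 9 lower of 37, and 3 lists have no call.

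The TGF-beta and BMP list held 9 lower genes of 37 (24.3%, beside 1.66% of all genes) and none higher, where the background of 0.917% gives less than 1 gene. Of these, 4 encode secreted proteins that bind BMPs (Grem1, Nog, Bmper and Chrdl1), 3 encode ligands of the superfamily (Gdf6, Bmp4 and Inhba), and Id2 and Id4 are transcriptional regulators that BMP signalling is known to induce. Bmper stood at 97.5, 126 and 202 CPM in control DA and 27.7, 20.7, 26.9, 24.8 and 18.4 CPM in Prdm6-deficient DA, with 10.6 to 37.8 and 21.7 to 31.4 CPM in the aorta (interaction -2.94 ± 0.34). Inhba rose in the aorta only, with an interaction of -1.12 ± 0.19. With the embryo as a block 6 of the 37 were lower.

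The Wnt list had 5 lower genes of 37 and the axon guidance list 5 of 47, with none higher in either. These are 13.5% and 10.6% beside 1.66% of all genes, and none higher is near the background of 0.917%. With the embryo as a block 4 genes of the Wnt list and 3 of the guidance list were lower. The Wnt count takes in a gene outside the 5 called in the main test, of which Ror2, Sfrp1 and Nkd1 stayed called. Fzd7, Ror1, Epha4 and Neo1 lost their calls (adjusted p = 0.0344, 0.0118, 0.0124 and 0.0489). Ror2, a Wnt5a receptor, fell in the DA and rose in the aorta (interaction -1.65 ± 0.22), whereas Sfrp1, a secreted Wnt modulator, fell by 1.40 in the DA with a change of 0.16 in the aorta. In the guidance list Unc5b, a netrin receptor, rose in the aorta by 1.09 and had an interaction of -0.86 ± 0.12. In the potassium channel list 3 of 25 were lower (12%), and of these Kcnj8 was called with the embryo as a block and Kcnk3 and Kcnmb1 were not (adjusted p = 0.0247 and 0.0373). Kcnk1, a potassium channel gene outside that list, was also called lower, at -1.38.

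The matrix lists held calls in both directions. Among collagens 2 of 38 were lower (5.26%, beside 1.66% of all genes) and 5 higher (13.2%, beside 0.917%). Col6a6 measured 97.6, 120 and 161 CPM in control aorta and 36.9, 29.4, 18.9, 41.9 and 26.1 CPM in Prdm6-deficient aorta, beside 14.3 to 87.2 and 33.7 to 73.9 CPM in the DA. It fell by 2.05 in the aorta, its change in the DA was 0.27, and its interaction was 2.32 ± 0.43. Col14a1 and Col24a1 also fell in the aorta only, while Col6a3 rose in the DA. In the elastic fibre, proteoglycan and adhesion list 6 of 50 were lower (12%) and 4 higher (8%), among them Acan (aggrecan), which rose in the DA from 33.9 to 166 CPM to 222 to 297 CPM with an interaction of 1.90 ± 0.38. The cartilage markers, a list that includes Acan, summed to 104 to 197 CPM in control DA, 266 to 335 CPM in the deficient DA, 266 to 376 CPM in control aorta and 251 to 422 CPM in the deficient aorta, and their part in the result was not tested.

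The remaining lists differed in their calls, and single calls among 13 to 38 genes lie near the background of 1.66% lower and 0.917% higher. Oxygen sensing had 3 lower and 2 higher of 21 (14.3% and 9.52%), above that background. With the embryo as a block Egln3, Rgs5 and Epas1 stayed called lower and Ndufa4l2 higher, while Car9 was not called (adjusted p = 0.0247). Growth factors had 4 lower of 38, also above the background, and 1 higher. With that block Igfbp2, Fgfr2 and Vegfd stayed lower and Fgf2 higher, while Kitl was not called (adjusted p = 0.0371). Vasoactive receptors had 2 lower of 27, and Hox genes 1 lower of 13 (Hoxd3). None of the vasoactive receptor and Hox genes was called by edgeR with the embryo as a block (adjusted p = 0.0679 for Lpar1, 0.0129 for F2r and 0.0101 for Hoxd3). None of 17 retinoic acid genes and none of 29 cell cycle genes was called by edgeR, with 9 and 5 at an unadjusted p below 0.05, and DESeq2 called 1 retinoic acid gene higher and no cell cycle gene. Foxc1 rose in both vessels, by 1.07 and 0.55, and its interaction of 0.52 ± 0.14 did not pass (adjusted p = 0.026). Hand2, Fbln1, Gja5 and Twist1 did not pass either, at 0.96, 1.39, 1.02 and -0.45, though Fbln1 passed with DESeq2 and with limma-voom.

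Markers of other cell types moved between the groups as well. Calls and unadjusted p values in this paragraph are those of the interaction unless a vessel is named. The 10 melanocyte markers, of which 8 were tested and none called by edgeR (3 at an unadjusted p below 0.05), had sums of 45.9 to 243 CPM in the control DA. The sums were 4.12 to 13.2 CPM for Prdm6-deficient DA, 7.54 to 23.1 CPM in control aorta and 4.39 to 8.85 CPM in Prdm6-deficient aorta. Skeletal muscle markers (8 tested, none called, 4 at an unadjusted p below 0.05) summed to 49.5 to 254 CPM in control DA and to 8.63 to 60.9 CPM over the other groups. The 254 CPM were those of control DA replicate 1. In that library cardiomyocyte markers (10 tested, none called, 2 at an unadjusted p below 0.05) summed to 1820 CPM, against 32.5 to 586 CPM in the other libraries. Macrophage markers (10 tested, none called, 8 at an unadjusted p below 0.05) summed to 186 to 343 CPM in control aorta and 103 to 161 CPM in Prdm6-deficient aorta. Of 10 fibroblast markers tested, 2 were higher, Dpt and Col14a1 (20%, beside 0.917% of all genes), and the list's median interaction was 0.1. The markers summed to 1540 to 2970 CPM in control DA and 3240 to 3640 CPM in Prdm6-deficient DA. In the aorta the sums were 2040 to 2690 CPM in controls and 2510 to 3090 CPM in Prdm6-deficient samples. Col14a1 changed by 0.12 in the DA and by -1.31 in the aorta. In the aorta the groups were separate for endothelial markers (728 to 1140 CPM in controls, 1190 to 1410 CPM in deficient samples), neuron markers (22.9 to 37.9 and 43 to 87.2 CPM) and brown fat markers (198 to 277 and 144 to 197 CPM). None of the 10, 7 and 9 genes tested in these lists was called in the interaction by edgeR, with 5, 0 and 4 at an unadjusted p below 0.05. Within the DA edgeR called 4 melanocyte, 1 skeletal muscle and 4 brown fat markers lower, and 1 endothelial and 1 neuron marker higher. Within the aorta it called 1 macrophage marker lower, and 3 endothelial markers and 1 neuron marker higher. The part of these cells in the interaction was not tested.

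Within the 2 runs of animal numbers the directions could be compared on separate libraries. Within the second run (15 libraries) 166 genes were called. In the first run (8 libraries, with 1 control aorta) edgeR called none, with 1297 of 18311 genes at an unadjusted p below 0.05, and no other tool was run there. Of the 166 genes, 164 had the same sign in the first run (98.8%), with a median difference of 1.38 in that direction beside 1.58 in the second. The share of all genes tested with the same sign in both runs was not computed, so 98.8% stands without a background. Kcnj8 was at -3.12 and -2.95 in the first and second runs, Thbs4 at -2.87 and -4.41, Nog at -4.28 and -6.51 and Hip1r at 2.51 and 1.97.

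Promoter sequence was read for the genes with the largest interactions, to show the bases before the start site where 4 chosen motifs lie. RefSeq promoters (GRCm38.p6) were at hand for 301 of the 425 called genes (70.8%), under the 80% needed, so a comparison of motif shares between called and other genes was void. The motif GCCNNNGGC, an AP-2 element, was in the promoter of 18.5% of all genes in the table on either strand and of 28.6% of the genes tested that had an entry. GGAATG, a TEAD element, was in 16.6% and 14.8%. The CArG box of SRF was in 1.81% and 1.65%, and TGANTCA, an AP-1 element, in 8.97% and 6.2%. The 250 bases before the start are given for the 4 genes of largest interaction that hold a match, with the match in capitals (CATTCC is GGAATG on the other strand). They are Cpm at chr10:117629250-117629499 (plus strand), Akap5 at chr12:76324641-76324890 (plus), Nr4a3 at chr4:48045055-48045304 (plus) and Thbs4 at chr13:92794819-92795068 (minus).
Cpm: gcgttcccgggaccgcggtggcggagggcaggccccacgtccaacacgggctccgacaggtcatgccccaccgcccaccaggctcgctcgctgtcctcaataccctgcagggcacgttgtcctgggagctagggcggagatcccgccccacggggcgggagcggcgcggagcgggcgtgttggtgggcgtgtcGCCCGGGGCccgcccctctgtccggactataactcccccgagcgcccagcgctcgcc
Akap5: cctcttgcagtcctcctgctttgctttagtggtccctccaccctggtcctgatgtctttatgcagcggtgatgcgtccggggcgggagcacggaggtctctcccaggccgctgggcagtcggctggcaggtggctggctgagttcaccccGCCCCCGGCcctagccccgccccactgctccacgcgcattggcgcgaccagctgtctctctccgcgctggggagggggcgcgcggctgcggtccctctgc
Nr4a3: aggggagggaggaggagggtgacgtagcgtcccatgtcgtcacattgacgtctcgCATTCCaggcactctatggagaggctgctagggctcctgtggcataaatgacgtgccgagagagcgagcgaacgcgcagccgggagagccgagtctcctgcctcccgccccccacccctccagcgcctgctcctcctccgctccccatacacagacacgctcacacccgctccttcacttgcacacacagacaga
Thbs4: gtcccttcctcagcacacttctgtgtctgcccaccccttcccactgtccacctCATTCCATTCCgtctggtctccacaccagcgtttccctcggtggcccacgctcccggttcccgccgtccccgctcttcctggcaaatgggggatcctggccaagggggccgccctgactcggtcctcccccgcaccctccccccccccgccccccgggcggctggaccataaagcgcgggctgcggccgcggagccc
The matches are a description of these letters and not sites of binding. Cpm and Akap5 hold GCCNNNGGC 57 and 100 bases before the start, Nr4a3 holds GGAATG 195 bases before it, and Thbs4 holds 2 overlapping copies. Cpm, a membrane carboxypeptidase, had an interaction of -4.28 ± 0.67, and Nr4a3, an orphan nuclear receptor, one of -4.02 ± 0.83 that was not called with the embryo as a block (adjusted p = 0.0147).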

How the data were processed

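Total RNA of microdissected DA and ascending aorta was sequenced by the authors as paired-end reads. Per the labels and the study's methods, reads were quality filtered, aligned to mm10 with STAR and counted per gene with RSEM, whose versions are not given in the sources used here. The deposited table holds the authors' expected counts (estimated, not whole) for 23 samples, all matched by column name. Counts were rounded, and 54723 of 54752 identifiers were paired with a GENCODE M21 symbol. Whether strand was used in counting is not given in the sources used here, so a gene and its antisense partner cannot be told apart.

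Genes were filtered with filterByExpr, scaled by TMM and fitted in edgeR 4.0.16 (R 4.3.3) as 4 groups, with the quasi-likelihood test of the interaction and Benjamini-Hochberg adjustment over 16463 genes. Calls needed an adjusted p below 0.01 and a log2 difference beyond 0.5. Standard errors were derived from the test's F. CPM use TMM library sizes. The steps were tested on simulated data. Alternatives used limma 3.58.1 and DESeq2 1.42.0, other scalings, filters, blocks, runs of animal numbers and sample subsets.

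The genes named were drawn from fixed groups, and not every member of a group is named in the text. Among calls averaging 1 or more in log2 CPM, these were the 12 with the most negative and the 12 with the most positive interaction. Up to 6 each were called in the aorta only, in both vessels with opposite signs or in both with the same sign. Up to 6 per list and the genes the study discusses made up the rest. The members of classes of 14 genes or fewer are also named. Members and lists were chosen with earlier results of these data known. Same-embryo samples were paired from the animal numbers in the labels, and their deviations from the group means correlated at -0.022 to 0.08 (9 pairs). Each sample is a separate embryo or pool except where both vessels share an embryo. No column of the authors' own comparisons was used, and 2 of the gene lists are not reported here.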

Additional observations from a re-analysis of the deposited data

Results flagged for a closer look

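The change with Prdm6 deficiency differed between the vessels, by the test of the difference itself, for 425 genes.

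Over the genes named, 296 groups were examined for a library standing apart from the rest of its group on the log2 scale, and 18 held one, where chance gives about 1 in 20. Control DA replicate 6 was low for 4 genes, at 18.9 CPM for Angptl1, 199 CPM for Fbn2, 3.23 CPM for Mme and 11.9 CPM for Penk. Control aorta replicate 1 stood apart at 13.9 CPM for Cck, 32.9 CPM for Flrt3, 269 CPM for Jag1 and 22.1 CPM for Lpar1. Prdm6-deficient aorta replicate 3 was low at 9.42 CPM for Des and 46.5 CPM for Srf. Prdm6-deficient DA replicate 5 stood at 122 CPM for Fbln1 and 18.8 CPM for Ptx3. Single values were 0.825 CPM for Cck in Prdm6-deficient aorta replicate 2, 45.5 CPM for Penk in Prdm6-deficient DA replicate 6, 2.99 CPM for Gdf6 in control aorta replicate 4, 409 CPM for Ilk in control aorta replicate 6, 18.5 CPM for Nr4a3 in control DA replicate 3 and 56.4 CPM for Srf in control DA replicate 1.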

How the results depend on the processing

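All 425 called genes kept their sign under each of the 21 alternatives run once and under each of the 23 fits that left out 1 library, and 316 stayed called in all 23 of those. The alternatives with other limits (adjusted p below 0.05, no fold limit, tested against 0.5) use the main fit, so their signs could not change. The other fits reuse libraries that chose the genes, and no share over all genes was computed, so the kept signs are a description. Leaving out 1 library gave 359 to 490 calls in the interaction, 233 to 295 lower, 117 to 202 higher, 784 to 948 in the DA and 325 to 441 in the aorta, and 0.06 to 0.19 for Prdm6. The replicate number as a block (replicate block) gave 335 calls, but same-numbered samples shared only a number, with deviations correlated at -0.054 to 0.133. With the embryo as a fixed block 238 genes were called (145 lower, 93 higher), in a fit with fewer libraries, and with the embryo as a random effect 229 were higher. DESeq2 called 248 higher, and without the pooled samples 97 were higher. Within the first run of animal numbers 0 genes were called in the interaction (0 lower, 0 higher), 201 in the DA and 7 in the aorta, and within the second 166 (126 lower, 40 higher), 419 and 226, again with fewer libraries. At an adjusted p below 0.05 there were 769 (443 lower, 326 higher) and 616 in the aorta. Tested against a difference of 0.5 there were 135 (108 lower, 27 higher), 323 in the DA and 115 in the aorta. Prdm6 gave -0.01 within the second run. Hoxb5, which did not pass, ranged from -0.71 to 0.24 and reversed without Prdm6-deficient aorta replicate 3; the cause was not tested. All other counts of genes called in the interaction, the DA or the aorta stayed within 1.5 times.

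Kcnmb1, Lpar1, Kitl, Kcnk1 and Ece1 stayed called in 7, 6, 7, 14 and 15 of the 23 fits without 1 library. Hoxd3 lost its call without Prdm6-deficient DA replicate 2 or 6, control aorta replicate 2 or Prdm6-deficient aorta replicate 3 or 4. Foxc1 passed without control DA replicate 6, and Fbln1 without control DA replicate 1 or 2, Prdm6-deficient DA replicate 5 or control aorta replicate 4. Fbln1 also passed in 8 of the 21 alternatives, among them DESeq2, limma-voom and the embryo as a random effect. The first run of animal numbers held 1 control aorta, which was assumed to vary like the other groups.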
